A study of Mus musculus with 12 samples.

Results

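Histone H3 acetylated at lysine 27 (H3K27ac) was compared between the distal forelimb bud of wild-type mouse embryos at E11.5 and that of embryos without HOXA13 and HOXD13, called the double mutant here. The material is every autosomal peak of the 2 H3K27ac lists, 31220 of wild type and 37433 of the double mutant. Together these are 68653 of the 171980 peaks in the 6 E11.5 lists of the study, a total that counts all chromosomes. Wild-type embryos were of a mixed C57BL/6 - CD1 background, and the mutants were Hoxa13-/-;Hoxd13-/- on the same background. Their Hoxa13 allele carries a neomycin cassette in the coding region and their Hoxd13 allele a lacZ reporter in the first exon, per the labels' protocols. Both losses are germline, so both factors were missing from every cell and not only from the distal limb. Each genotype has 1 H3K27ac library, and the labels give neither the number nor the sex of the embryos behind it, which is why sex chromosomes were left out. The design text speaks of dissected distal forelimb, whereas the protocol names the cross-linked material ZAP cells, an abbreviation that it does not spell out. No test across embryos is therefore possible, no p-value is given, and the Wilson 95% intervals in the text reflect only how many peaks were counted. Genotype and tissue could not be checked on genes, because the peaks lie on mm9 and gene models of that build were not used here. For the same reason regions are named by their mm9 coordinates, counted from 1, and no gene or sequence is given for them.

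H3K27ac is laid down by the acetyltransferases CBP and p300 and marks active promoters and enhancers, often as a pair of nucleosome blocks on either side of bound factors. HOXA13 and HOXD13 bind DNA through their homeodomains and act late in the distal limb bud, where the digits cannot form without them. Hoxd13 lies on chromosome 2 and Hoxa13 on chromosome 6. The HoxD genes are flanked by 2 regulatory landscapes, of which one drives expression in the forearm and the other, later and with HOX13 proteins taking part, in the digits. HOXA13 and HOXD13 peaks from wild-type embryos, which played no part in defining the H3K27ac changes, were used here to describe where those changes lie.

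The double-mutant list covered more of the genome but held fewer high scores. Wild-type peaks covered 58.5 Mb and double-mutant peaks 73.2 Mb, a ratio of 1.25 that lay between 1.12 (chromosome 3) and 1.31 (chromosome 12) on single autosomes. The deposited peak score, read as -10 times the decimal logarithm of the peak caller's p-value, had a wild-type median of 337 and a double-mutant median of 243. Scores at or above 3100, a value at which most of the highest peaks are tied, made up 14.6% of the wild-type list and 7.80% of the double-mutant list. Read depth is unknown, so genotype, depth and enrichment cannot be told apart in these totals. Changes at single places are therefore set below against the shift of the whole list.

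To follow a place through both genotypes, wild-type and double-mutant peaks that overlapped by at least 1 bp were joined into components, 41422 in all. Of these, 25317 held peaks of both genotypes (shared components), 4712 held wild-type peaks only and 11393 double-mutant peaks only. The background rates of presence or absence were thus 15.7% of the 30029 components with a wild-type peak and 31.0% of the 36710 with a mutant peak. Keeping only peaks with a score of 100 or more left 3296 wild-type-only and 6830 mutant-only components. Lists of equal length gave 6061 and 6745, so the excess of mutant-only components rests largely on the longer mutant list. Presence or absence was only part of the difference. Of the 8.74 Mb covered in wild type and not in the double mutant, 3.23 Mb (37.0%) lay in shared components. Of the 23.4 Mb covered in the double mutant only, 10.2 Mb (43.5%) lay in shared components. Both genotypes covered 49.8 Mb in common, 60.8% of the 81.9 Mb covered by either.

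Peaks of the double mutant without a wild-type counterpart often lay beside shared ones. Of the mutant-only components, 39.8% (38.9 to 40.7%) were within 5 kb of a shared component, with a median distance of 7983 bp. Among wild-type-only components this share was 19.02% (17.9 to 20.2%) and the median distance 21788.5 bp. Peaks found only in the mutant thus lay more often near acetylation present in both genotypes than peaks found only in wild type. Distance to other wild-type-only peaks was not part of this measure.

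Most shared components changed little in length, and few became much shorter. The covered length in the double mutant was a median 1.08-fold of that in wild type (quartiles of the log2 ratio -0.04 and 0.34), and 69.0% of shared components were longer in the mutant. Only 317 were narrowed, meaning that the mutant covered at most 1 part in 2 of the wild-type length, which is 1.25% of shared components. Widening by at least 2-fold was called at 1056, or 4.17%. When the ratio was taken relative to its median, 461 were narrowed and 786 widened. Widening thus stayed more frequent, but the size of its excess depends on how the lists are scaled. With scores of 100 or more in every list 112 were narrowed and 616 widened, and lists of equal length gave 166 and 1044. The narrowed component closest to the threshold had a log2 ratio of -1.0 and the nearest one outside it -0.998; for widening these values were 1.0 and 0.999.

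Narrowed components were mostly HOX13-bound, and widened ones were bound somewhat less often than those within 2-fold. A HOXA13 or HOXD13 peak overlapped 77.9% of narrowed components (73.0 to 82.1%), 30.8% of widened ones (28.1 to 33.6%) and 36.1% of those within 2-fold (35.5 to 36.7%). Both factors were present at 214 of the 317 narrowed components, HOXA13 only at 24, HOXD13 only at 9 and neither at 70. In a typical narrowed component a peak of 2157 bp in wild type was left with 893 bp in the mutant, at a median mutant score of 73.7. Narrowed peaks were therefore close to the calling limit, a score of 50, in the mutant. Components with a HOXA13 peak were longer in wild type, with medians of 1983 bp or more in each quintile of HOXA13 score, than shared components in general, with 1811 bp. Shares were therefore also compared at like length and score. Narrowing was called at 2.68% of bound shared components (2.37 to 3.03%) and 0.435% of unbound ones (0.344 to 0.549%). With unbound components weighted to the wild-type length and score of bound ones (quintiles of length by quintiles of score), the unbound share was 0.750%. For widening the bound share of 3.52% was below the unbound share of 4.54% before weighting and above the weighted one of 3.05%.

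**Figure D1:**
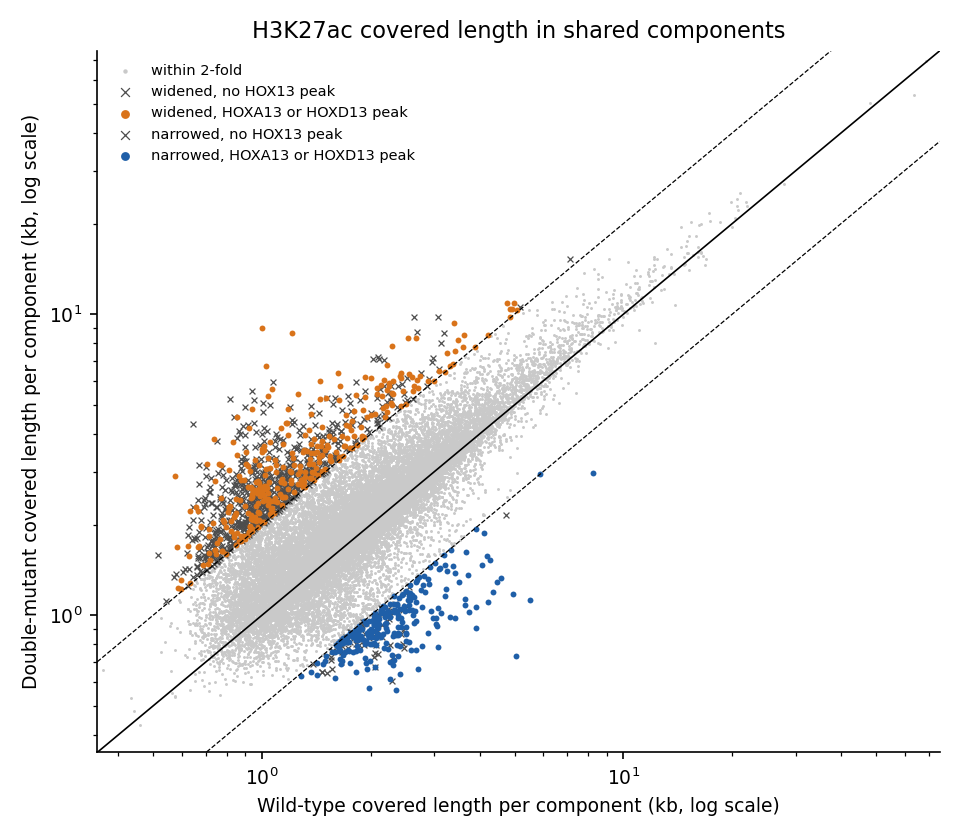
Covered length of H3K27ac in wild type (horizontal axis, kb, log scale) against the double mutant (vertical axis, kb, log scale) for each of the 25317 shared components. Dots in grey lie within 2-fold, dots in colour are narrowed or widened components with a HOXA13 or HOXD13 peak, and crosses are those without; the solid line marks equal length and the dashed lines 2-fold. The 317 narrowed components below the lower dashed line are mostly dots in blue (247). The 1056 widened ones above the upper line include 731 crosses (69.2%), where 63.6% of all shared components have no factor peak.

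The largest falls of length at single peaks were all at HOX13-bound places. On chromosome 4, chr4:149765350-149773567 was 1 wild-type peak of 8218 bp, of which 2958 bp remained in the mutant. At chr2:74454751-74460274 a wild-type peak of 5524 bp with the tied score 3100 was left with 1119 bp at a score of 124. HOXA13 and HOXD13 peaks there had scores of 3025 and 3100, in lists whose medians are 126 and 134, so both factors were called strongly at this place. At chr6:53378310-53383344 only 730 of 5035 bp remained, at a score of 54.4. The other 2 of the 5 largest falls were at chr2:74025304-74030252, from 4949 to 1172 bp, and at chr11:24527779-24532355, from 4577 to 1332 bp. All 5 carried peaks of both factors in wild type, and none overlapped H3K27me3 in either genotype. Of all narrowed components 67.5% carried both factors, and 9.15% overlapped H3K27me3 in wild type, so the absence of that mark was usual for the class.

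Most of the largest rises of length had a factor peak too. At chr6:51014814-51023784 a wild-type peak of 1002 bp (score 73.7) became one of 8971 bp (score 1826), an 8.95-fold gain. At chr9:83526848-83535480 the length went from 1212 to 8633 bp. These small wild-type peaks lay inside a mutant domain many times their size. The other 3 were at chr2:32729137-32738904 (3073 to 9768 bp), chr18:81177302-81188232 (4772 to 10931 bp) and chr7:149775430-149784751 (3404 to 9322 bp). A factor peak was present at 4 of the 5, beside 30.8% of all widened components. The highest factor score was 950, for HOXA13 at the chromosome 7 region, and 290 or less at the other 3. HOXA13 and HOXD13 scores there, 950 and 530, were above the 347 and 509 of the largest fall, on chromosome 4. Factor scores thus did not separate every rise from every fall.

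Because scores of the 2 lists cannot be compared directly, shared components were ranked by their highest score within each genotype, over the same 25317 components, and the percentile ranks were subtracted. Ranks fell by 25 points or more at 1189 components (4.70%) and rose by as much at 1115 (4.40%). The components just inside and outside these limits had shifts of -25.003 and -24.991 for falls, and 25.001 and 24.985 for rises. Ranks are blunt at the top, since 2743 components had scores of 3100 or more in both lists. Among components below that score in both, ranked anew, 1754 fell and 1707 rose. Length and rank moved together: 255 of the 317 narrowed components also fell in rank, 571 of the 1056 widened ones rose, and 0 did the reverse in either class. Rank also found changes that length did not, since 934 of the 1189 falls were at components whose length stayed within 2-fold.

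Rank falls were concentrated at HOX13-bound components and rises away from them. Of components that fell, 70.4% (67.7 to 72.9%) were bound, against 25.7% (23.3 to 28.4%) of those that rose and 35.2% (34.6 to 35.8%) of those within 25 points. A fall was called at 11.6% of components bound by both factors (10.8 to 12.4%), 4.38% of those bound by HOXA13 only (3.57 to 5.35%), 2.79% of those bound by HOXD13 only (1.92 to 4.03%) and 2.19% of unbound ones (1.97 to 2.42%). The interval for HOXD13 only overlapped that of unbound components, so no difference between those could be seen at this number of components. With unbound components weighted to the length and score of bound ones, 9.08% of bound components fell in rank against 2.50% of unbound ones. Rises went the other way, at 3.11% of bound and 4.70% of weighted unbound components.

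Stronger factor peaks went with more frequent falls. Over quintiles of the highest HOXA13 score in a component, the share with a rank fall was 3.21%, 5.88%, 8.12%, 11.4% and 20.4% (18.5 to 22.4%), from the lowest to the highest. For HOXD13 it was 4.18%, 6.91%, 8.51%, 12.8% and 19.7% (17.8 to 21.9%). Narrowing followed the same order, from 1.15% to 7.03% for HOXA13 and from 1.05% to 6.76% for HOXD13. The wild-type H3K27ac length rose over the same HOXA13 quintiles, with medians of 1983 bp in the lowest and 2560 bp in the highest. Its part in the trend was not tested.

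**Figure D2:**
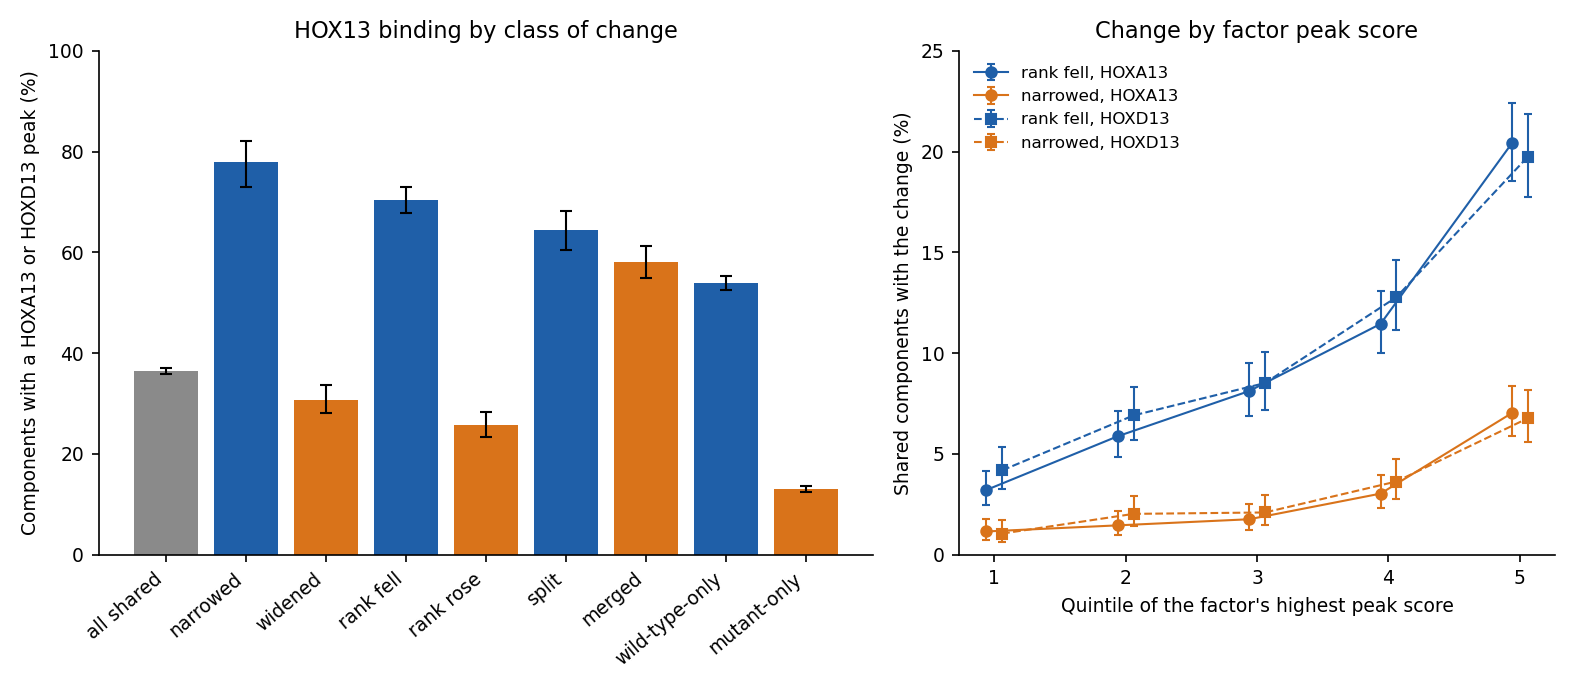
Left, percentage of components in each class that overlap a HOXA13 or HOXD13 peak, with Wilson 95% intervals as error bars. Right, percentage of shared components whose rank fell (blue) or that were narrowed (orange) by quintile of the highest HOXA13 score (circles, solid lines) or HOXD13 score (squares, dashed lines), with the same intervals. Narrowed components (77.9%) and rank falls (70.4%) stand highest on the left, and rank falls climb from 3.21% to 20.4% over the HOXA13 quintiles on the right.

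Of the 5 largest rank falls at single peaks, 3 lay on chromosome 2. The peak chr2:74454751-74460274, described above, fell by 77.1 points, from percentile 90.6 to 13.5. At chr2:73910530-73914754 the score went from 3029 in wild type to 77.8 in the mutant, a fall of 76.3 points, and the length from 4225 to 1109 bp. Its HOXA13 and HOXD13 peaks had scores of 2284 and 3040. At chr18:13038391-13041105 the scores were 2253 and 76.2, and at chr11:24871033-24873695 they were 2070 and 69.8. The remaining one is chr2:74025304-74030252, with 2146 and 76.9. All 5 carried both factors in wild type, as did 60.6% of all components that fell in rank.

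The largest rises of rank started from peaks near the calling limit, which the choice by rank rise itself favours. At chr15:102783931-102788126 the score was 89.5 in wild type and 2089 in the mutant, a rise of 69.3 points, next to the 70.3 points of the chromosome 6 region named above. At chr14:67851606-67856523 the scores were 88.8 and 1544, at chr11:119796782-119801691 they were 54.5 and 972, and at chr12:106039134-106042304 they were 60.3 and 912. The chromosome 14 and chromosome 11 regions had no factor peak. H3K27me3, the mark of Polycomb repression, was called over the chromosome 15 and chromosome 14 regions in both genotypes and over the chromosome 12 region in wild type only.

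Splitting and merging asked whether a continuous stretch of acetylation was interrupted or closed. A single wild-type peak was matched by 2 or more mutant peaks at 574 components (2.27% of shared ones), and 2 or more wild-type peaks by a single mutant peak at 918 (3.63%). Another 121 (0.478%) held several peaks of each. Splits were nearly all into 2 pieces (560 of 574), and 818 of the 918 mergers joined 2 peaks. These counts depend on weak and closely spaced peaks: with scores of 100 or more they were 286 splits and 569 mergers, lists of equal length gave 382 splits, and joining peaks closer than 1000 bp first left 65 splits. Split components were not shorter as a group, with a median length ratio of 1.06-fold, but their rank shift had a median of -9.90 points and 103 of them fell by 25 points or more. For merged components the median length ratio was 1.21-fold and the median rank shift 10.6 points.

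Split and merged components were both bound more often than shared components in general, 64.5% (60.5 to 68.3%) and 58.2% (55.0 to 61.3%) against 36.4%. Both classes were also longer in wild type, with medians of 2576 and 3627.5 bp. With unbound components weighted to the length and score of bound ones, splitting was called at 4.01% of bound and 2.38% of unbound components. Merging was called at 5.79% of bound and 6.47% of unbound ones, which is the opposite order to the unweighted shares of 5.79% and 2.39%.

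The gaps themselves separated splits from mergers. A split gap is an interval between neighbouring mutant peaks inside 1 wild-type peak, and a filled gap an interval between neighbouring wild-type peaks inside 1 mutant peak. There were 728 split gaps, with a median length of 96 bp, and 1193 filled gaps, with a median of 243 bp. A factor peak overlapped 44.0% of split gaps (40.4 to 47.6%) and 15.8% of filled gaps (13.8 to 17.9%). Among gaps over 500 bp the shares were 69.8% of 63 (57.6 to 79.8%) and 14.1% of 362 (10.9 to 18.1%). With scores of 100 or more in every list, 32.6% of split gaps and 9.76% of filled gaps were bound. Filled gaps lay outside wild-type acetylation, and binding was mapped in wild type only. For split gaps a comparison within the same wild-type peaks is therefore closer. Factor peaks covered 49.9% of the bases of split gaps and 39.9% of the bases that the same peaks kept. In the central 50% of these peaks the shares were 52.2% and 46.6%. For filled gaps the order was the opposite, with 7.49% of gap bases under a factor peak and 26.3% of the bases of the same mutant peaks that were also covered in wild type. Here the limit remains, since by definition only the latter bases were covered in wild type, where binding was mapped. No conclusion is drawn from this order.

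Named examples show both forms. At chr2:74038702-74043477 a wild-type peak of 4776 bp became mutant peaks of 1282 and 1184 bp, and its score of 781 gave way to a highest score of 108. At chr10:26702570-26706960 a wild-type peak of 4096 bp (score 1524) was left as pieces of 1064 and 1087 bp, the higher at a score of 106. In the longest split peaks much of the acetylation stayed. At chr11:23971162-23985055 10759 of 13894 bp remained, and at chr1:19196815-19209027 8012 of 12213 bp. Mutant peaks also reached beyond the wild-type peak at 2 of the 5, by 295 bp at the chromosome 10 region and by 1261 bp at chr5:38473250-38477495. All 5 carried peaks of both factors, as did 55.2% of all split components.

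None of the 5 largest mergers had a factor peak, unlike 58.2% of all merged components, and 4 of them were on chromosome 7. At chr7:149689102-149704391 3 wild-type peaks with 7134 bp in all became 1 mutant peak of 15290 bp. At chr7:149613645-149623424 2 peaks with 2627 bp became 1 of 9780 bp, with a highest score of 159 in wild type and 1496 in the mutant. At chr7:149659982-149675197 2 peaks with 9146 bp became 1 of 15216 bp. These 3 lie within less than 100 kb of each other, and the widened region chr7:149775430-149784751 follows them. The others were chr7:138119142-138127840, from 2682 to 8699 bp, and chr1:95101759-95115485, where 4 peaks with 7775 bp became 1 of 13727 bp. The maps of called peaks show 1 of these domains beside bound peaks on chromosome 2 that were split or narrowed.

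**Figure D3:**
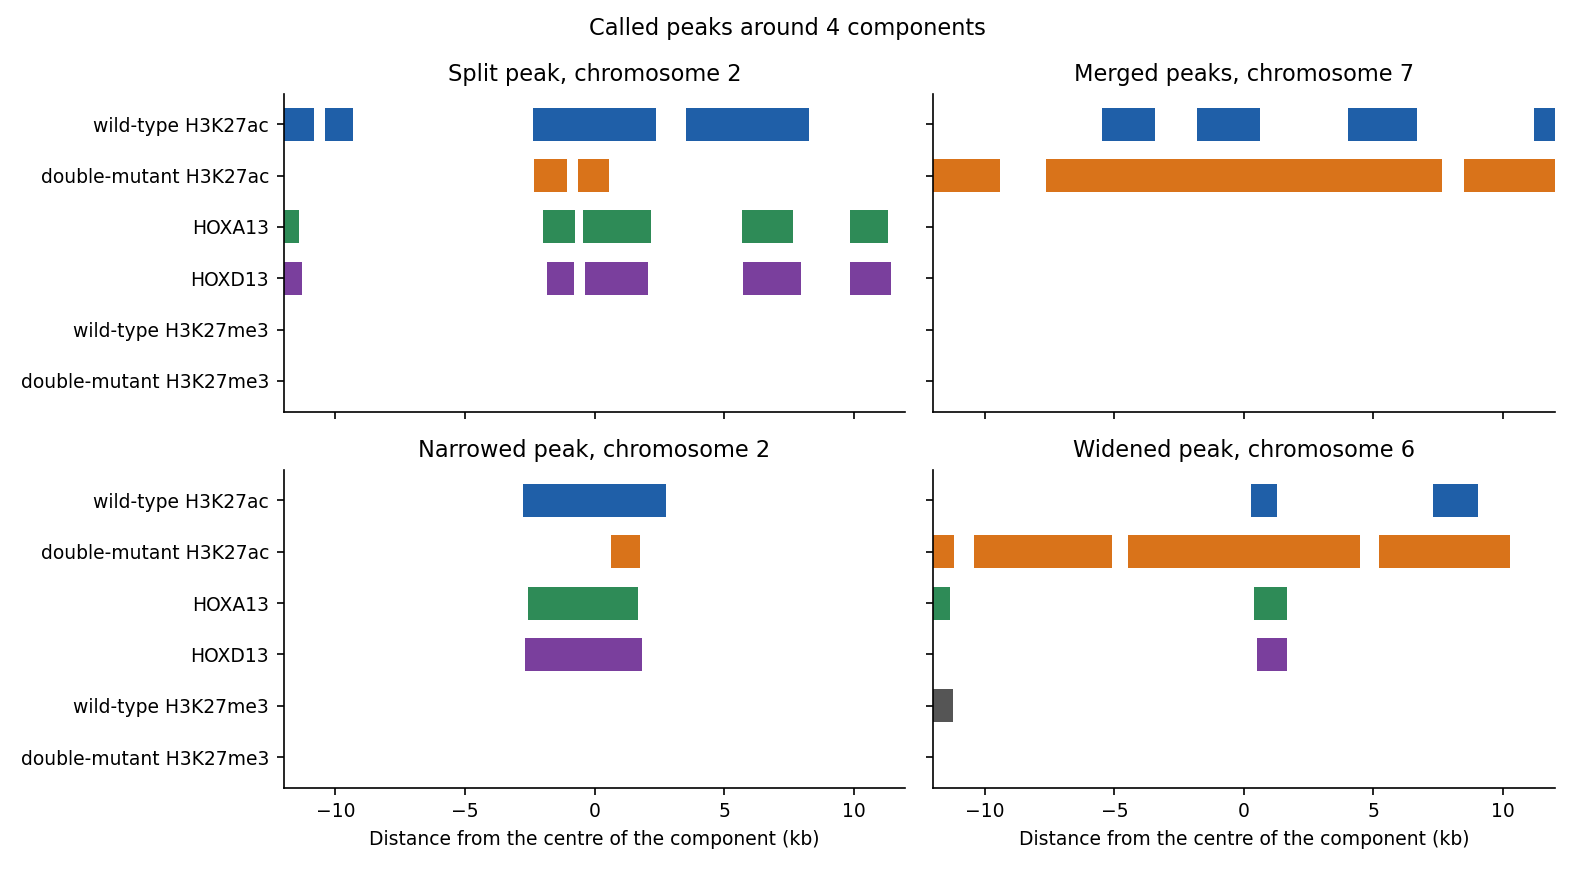
Called peaks around 4 components, as blocks along the distance from the centre of the component (kb), with 1 row for each of 6 lists. On the left a wild-type peak of 4776 bp is split into 2 mutant pieces and another of 5524 bp is narrowed to 1119 bp, both under HOXA13 and HOXD13 peaks; on the right 3 wild-type peaks merge into 1 of 15290 bp with no factor peak, and a peak of 1002 bp with a HOXA13 and a HOXD13 peak widens to 8971 bp.

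At the level of single bases, loss was more frequent under factor peaks once the distance to the end of the peak was held equal. Bases near an end were lost most often, and factor peaks lay mostly further in. In shared components, wild-type bases 500 to 1000 bp from the nearer end were not covered in the mutant in 5.34% of cases under a HOXA13 or HOXD13 peak and in 1.60% elsewhere. Within 100 bp of the end the shares were 30.2% and 22.4%, and beyond 1000 bp they were 2.85% and 0.991%. Over all distances together they were 7.12% and 5.78%.

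Bound components as a whole also lost more than unbound ones, outside factor peaks too. Within HOX13-bound components alone, 2.83% of the bases outside factor peaks were lost at 500 to 1000 bp from the end, which lies between the 5.34% under factor peaks and the 1.24% of unbound components. The order was the same in each of the 5 distance classes, for instance 16.7%, 13.1% and 7.46% at 100 to 250 bp. Without the distance classes it was not, since 7.12% of bases under factor peaks and 7.93% of other bases were lost in bound components. In the narrowed components with 1 peak per genotype, 56.1% of the bases under factor peaks and 65.4% of the other bases were lost, without distance classes. Bases are not independent of each other, so no interval is given for these shares.

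The mirror comparison gave the opposite order. Of the mutant bases 500 to 1000 bp from the nearer end of a peak in a shared component, 3.18% under factor peaks and 10.7% elsewhere were not covered in wild type. Over all distances these shares were 4.76% and 20.1%. Binding was mapped in wild type only, and the part of this in the order was not tested.

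**Figure D4:**
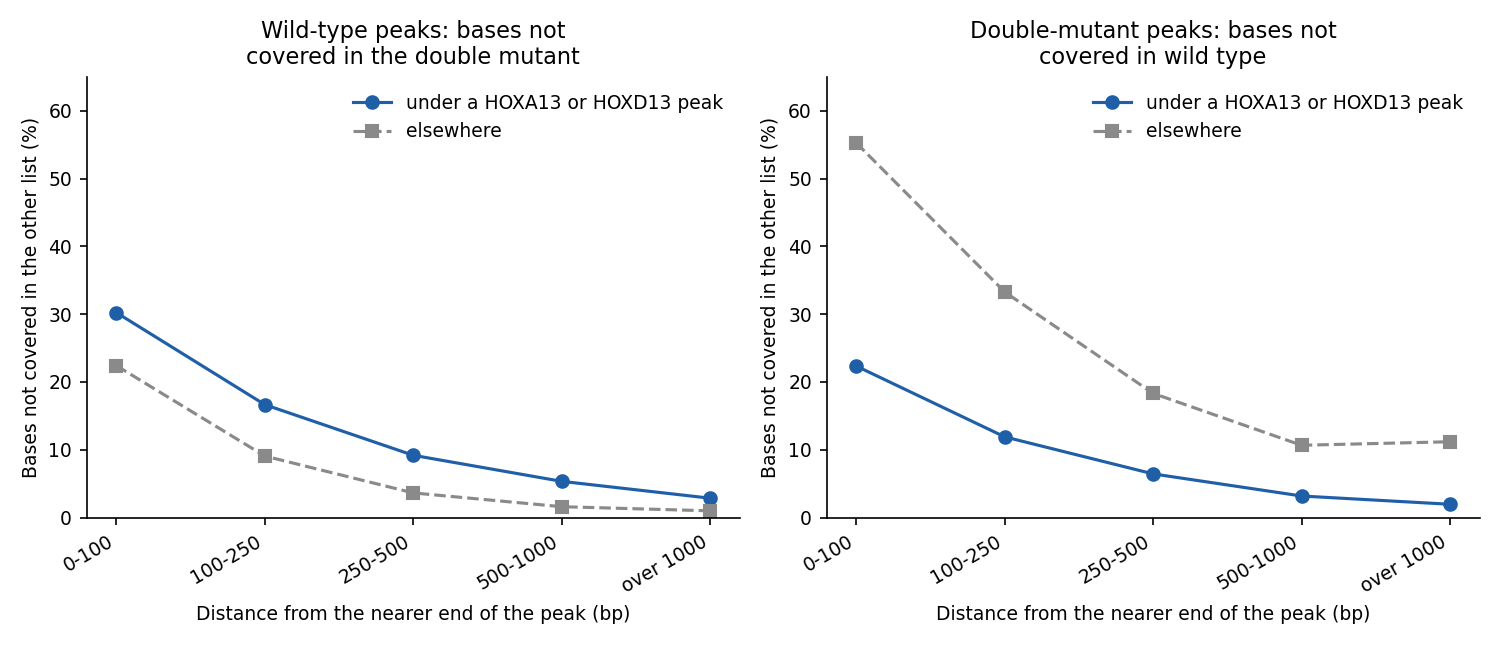
Percentage of bases of shared components that were covered in wild type alone (left) or in the double mutant alone (right), by distance from the nearer end of the peak (bp). Circles are bases under a HOXA13 or HOXD13 peak and squares all other bases. The circles lie above the squares on the left (5.34% against 1.60% at 500 to 1000 bp) and below them on the right (3.18% against 10.7%).

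H3K27me3 was compared at the same components, because a lysine that is methylated cannot be acetylated and the same places can pass between the marks. It was called in wild type at 9.15% of narrowed components (6.45 to 12.8%), 15.8% of widened ones (13.7 to 18.1%) and 16.4% of those within 2-fold (15.9 to 16.9%). For rank the shares were 11.3% of falls (9.60 to 13.2%), 23.1% of rises (20.8 to 25.7%) and 16.2% of the rest (15.7 to 16.7%). Components that rose in rank thus overlapped wild-type H3K27me3 more often than the others, and those that fell less often. These shares were not weighted for wild-type length or score. Medians of these were 1124 bp and 99.1 at rises, and 2016 bp and 484 at falls. Most rises with the mark had it in both genotypes: these numbered 216 of 1115, while 42 had H3K27me3 in wild type only and 4 in the mutant only. At components that fell these numbers were 111, 23 and 9 of 1189. H3K27me3 peaks covered 74.3 Mb of wild-type autosomes and 60.0 Mb of mutant ones, and over all shared components the mark was called in wild type only at 802 and in the mutant only at 123. The 2 H3K27me3 lists also differ off the autosomes. The wild-type list held 28875 peaks on all chromosomes and 19624 on autosomes, the mutant list 19358 and 18973. The cause of this difference between the lists was not tested.

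Neighbouring components changed alike, and this faded with distance. Across pairs of shared components less than 5 kb apart (2245 pairs), Pearson's r of the rank shifts was 0.27. It was 0.21 at 5 to 20 kb (8647 pairs), 0.13 at 20 to 100 kb, 0.08 at 100 to 500 kb and 0.04 at 500 to 2000 kb (24301 pairs). For the log2 length ratio it went from 0.25 to 0.01 over the same distances. These are correlations across places in the same libraries, which share depth and input.

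Some changes spanned whole stretches, as the surroundings of the named components show; these surroundings were looked at after the values were seen. Around the narrowed peak chr2:74025304-74030252, 8 of the 11 other components within 100 kb were wild-type-only, 0 were mutant-only, and the 3 shared ones were all shorter and lower in rank in the mutant. Their covered length was 26.1 kb in wild type and 5.04 kb in the mutant. Over all autosomes 4712 of the 41422 components were wild-type-only and 11393 mutant-only, and 69.0% of shared ones were longer in the mutant. Around chr2:73910530-73914754, 9 of 10 were wild-type-only, and the length was 16.5 kb against 1.36 kb. These surroundings overlap on the chromosome, so the same components can be counted in both. Peaks on this stretch were thus absent side by side. HOX13 peaks lay at 6 of the 11 and 6 of the 10, beside 53.9% of all wild-type-only and 36.4% of all shared components.

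The opposite was seen around the widened peak chr6:51014814-51023784. Of the 30 other components within 100 kb, 24 were mutant-only and 0 wild-type-only, and the covered length was 21.5 kb in wild type and 82.6 kb in the mutant. HOX13 peaks lay at 13 of these 30 components, beside 12.96% of all mutant-only and 36.4% of all shared components. Around chr9:83526848-83535480, 16 of 24 were mutant-only and 1 wild-type-only, with 13.3 kb against 45.8 kb. Around the merged component chr7:149689102-149704391, 9 of 21 were mutant-only and all 12 shared ones were longer in the mutant, with 80.7 kb against 131 kb. Over all autosomes 11393 of the 41422 components were mutant-only, and 69.0% of shared ones were longer in the mutant.

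The highest-scoring components of 1 genotype also differed in their surroundings. Both factors were present at 41.7% of all wild-type-only components. All 5 of the highest-scoring ones carried both: chr11:88267419-88269822 (score 3100), chr2:106326327-106329098 (2454), chr2:73789565-73793670 (1927), chr11:45490770-45493482 (1710) and chr2:74107695-74112549 (1622). Around the last of these 8 of 11 others were also wild-type-only, whereas around chr11:45490770-45493482 only 1 of 5 was, and the 3 shared ones there were longer in the mutant. Of the 5 mutant-only ones, chr2:74984036-74989106 (score 1838) carried both factors, chr2:154843981-154846808 (1443) HOXA13 only, and chr2:75243207-75249771 (1265), chr6:51008900-51014206 (1018) and chr10:21867730-21869593 (1001) neither. Around chr2:75243207-75249771, 18 of 26 others were also mutant-only, with 21.8 kb in wild type and 58.2 kb in the mutant. Of all 41422 components 11393 were mutant-only and 4712 wild-type-only. By contrast chr2:154843981-154846808 lay among 4 wild-type-only and 5 mutant-only components with 21.3 kb in wild type and 21.2 kb in the mutant.

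Covered length was then compared in windows of 1 Mb along each autosome. Among the 1523 windows with at least 20 kb covered in both genotypes together, the median log2 ratio of double mutant to wild type was 0.26 (quartiles 0.05 and 0.47), and 308 windows were below 0. The length was at least 2-fold lower in the mutant in 4 windows (0.263%) and at least 2-fold higher in 28 (1.84%). Relative to the autosomal ratio of covered length these numbers were 17 and 6, and with lists of equal length 13 and 11, so which direction is more frequent depends on the scaling of the lists. The 4 lower windows held 23 to 34 merged HOXA13 and HOXD13 sites each, against a median of 16 over all windows (quartiles 11 and 23), and the 28 higher ones a median of 19.5 (7 to 47). Over quintiles of the log2 ratio the median number of sites was 17, 14.5, 16, 17 and 19 from the lowest to the highest ratio. The number of sites in a window therefore gave no steady order of regional change.

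**Figure D5:**
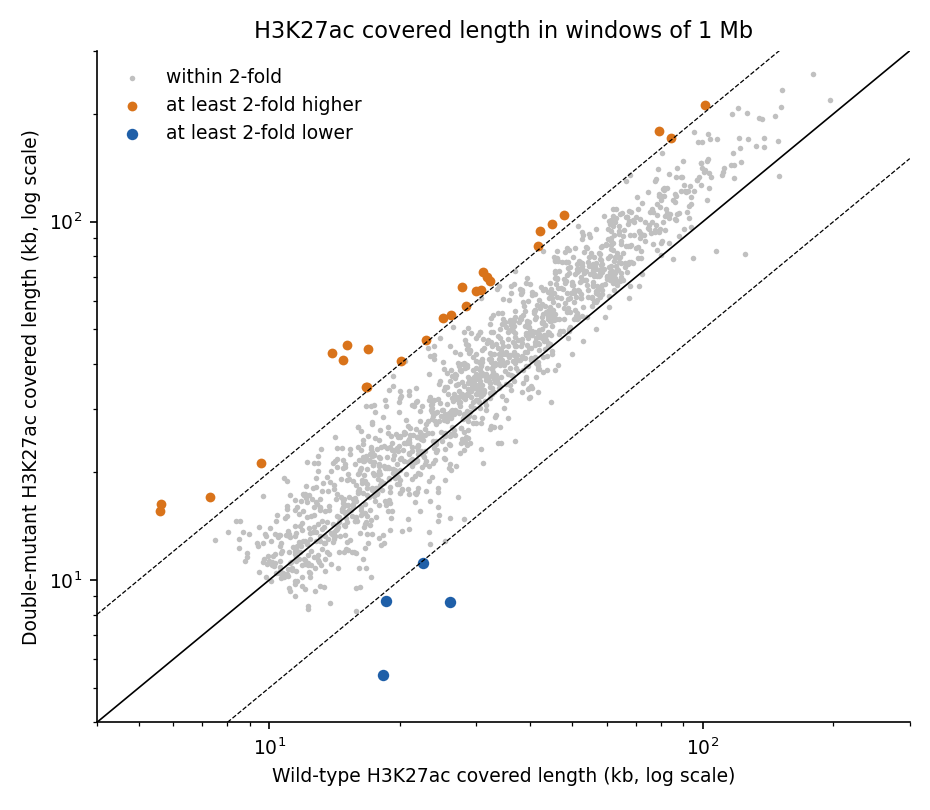
H3K27ac covered length in wild type (horizontal axis, kb, log scale) against the double mutant (vertical axis, kb, log scale) in 1523 windows of 1 Mb. Points in blue are at least 2-fold lower in the mutant (4 windows) and points in orange at least 2-fold higher (28 windows); the solid line marks equal length and the dashed lines 2-fold. Most points lie above the solid line, and 308 lie below it.

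By ratio the largest regional fall was on chromosome 3 from 39 to 40 Mb, with a log2 ratio of -1.75. Ranked by bases, which favours windows with much H3K27ac, the largest falls were on chromosome 2. Its windows from 74 to 75 Mb and from 73 to 74 Mb had log2 ratios of -0.625 and -0.373, short of 2-fold. From 74 to 75 Mb the covered length was 125 kb in wild type and 81.2 kb in the mutant. This window held 74 HOX13 sites, and of its 33 components 15 were wild-type-only and 6 mutant-only. H3K27me3 in this window covered 255 kb in wild type and 155 kb in the mutant, so both marks covered less. From 73 to 74 Mb H3K27ac went from 107 to 83.0 kb, and of 61 components 19 were wild-type-only and 8 mutant-only. Over all autosomes 4712 of the 41422 components were wild-type-only and 11393 mutant-only. The adjoining window from 75 to 76 Mb was the sixth largest rise in bases, from 95.6 to 178 kb. Of its 81 components 3 were wild-type-only and 41 mutant-only, and it held 67 HOX13 sites. H3K27me3 there covered 40.2 kb in wild type and 3.37 kb in the mutant. Adjoining windows with 74 and 67 factor sites thus moved in opposite directions.

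Farther along the same chromosome, from 171 to 172 Mb, H3K27ac fell from 26.1 to 8.69 kb. Of its 15 components 10 were wild-type-only and 0 mutant-only. Of the 5 shared ones 3 fell in rank by 25 points or more, beside 4.70% of all shared components. H3K27me3 was longer here in the mutant, 36.9 kb against 14.3 kb in wild type, although its autosomal total was shorter in the mutant. On chromosome 3 from 39 to 40 Mb H3K27ac went from 18.3 to 5.44 kb with 34 HOX13 sites and 0 kb of H3K27me3 in either genotype. The other 2 windows that were at least 2-fold lower were chromosome 1 from 19 to 20 Mb, from 18.6 to 8.74 kb, and chromosome 10 from 115 to 116 Mb, from 22.7 to 11.2 kb. The 2 remaining windows among the 5 largest falls in bases, chromosome 13 from 23 to 24 Mb and chromosome 18 from 69 to 70 Mb, were rich in acetylation and lost little of it, with 150 and 134 kb in the first and 95.0 and 79.4 kb in the second.

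The regional rises printed next were ranked by bases, which favours windows with much H3K27ac. The 28 windows that were at least 2-fold higher had a wild-type median of 27.05 kb, against 29.6 kb over all windows. On chromosome 2 from 166 to 167 Mb the covered length went from 101 to 211 kb. Of its 108 components 52 were mutant-only and 4 wild-type-only, and of its 52 shared ones 11 were widened and 14 rose in rank. Over all autosomes 11393 of the 41422 components were mutant-only and 4712 wild-type-only. Of all shared components 4.17% were widened and 4.40% rose in rank. On chromosome 12 from 80 to 81 Mb the covered length went from 79.1 to 179 kb. Of its 72 components 34 were mutant-only and 0 wild-type-only. The next were chromosome 2 from 27 to 28 Mb (84.4 to 171 kb), chromosome 13 from 56 to 57 Mb (121 to 207 kb) and chromosome 13 from 60 to 61 Mb (117 to 200 kb). In these 5 windows HOX13 sites numbered 18 to 35, and narrowed components 0 or 1, where 1.25% of all shared components were narrowed. The largest difference in H3K27me3 among the 5 was at chromosome 13 from 56 to 57 Mb, with 80.5 kb in wild type and 68.4 kb in the mutant. These 5 do not stand for the class. Median H3K27me3 in the 28 higher windows was 47.4 kb in wild type and 22.8 kb in the mutant. Over all windows it was 25.8 and 19.8 kb, and in the 4 lower ones 27.4 and 32.2 kb. When windows were grouped into quintiles by log2 ratio, lowest first, wild-type medians were 15.4, 22.5, 27.4, 34.5 and 37.4 kb. Whether H3K27me3 and the regional change are linked was not tested.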

How the data were processed

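Chromatin immunoprecipitation libraries from E11.5 distal forelimb buds were used as 6 deposited peak lists: H3K27ac and H3K27me3 in both genotypes, HOXA13 and HOXD13 in wild type. The submitters' processing notes name Bowtie 0.12.7 and MACS 1.4, an aligner and a peak caller, and the mm9 build; how they were set is not given in the sources used here. Each peak carries the score the authors deposited, read as -10 times log10 of a p-value against input, since its minimum of 50 is 1e-05 on that scale. The score depends on depth and input, so it was only ranked or filtered within a list. The lists hold no read counts, so depth is unknown. The E10.5 list and the input libraries were not analysed here.

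Overlaps, components, covered bases, ranks and windows were computed with Python 3.11.15, numpy 2.4.6 and pandas 2.3.3 on 19 autosomes. The code was tested on simulated data, a copy of the 31220 wild-type peaks with 200 edits of each kind. Bases of the real lists on chromosome 19 were also counted in another way. In 14 of 14 checks the values matched exactly. Peak scores were not edited, so rank shifts were not checked in this way. Regions named are the 5 of each class with the highest score (1 genotype only), the most bases lost (split) or gained (merged), and, where each genotype had a single peak, the largest change in length or rank; windows are the first 5 in each direction by bases. The 4 lower windows, the window at chromosome 2 from 75 to 76 Mb and the surroundings were added after values were seen. Members, classes and settings were chosen with earlier results of these data known. Alternatives were a higher score minimum, equal list lengths, joined peaks, a stricter overlap, all chromosomes, other gap, fold and window sizes, other scalings, summed scores and binding by both factors.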

Additional observations from a re-analysis of the deposited data

How the results depend on the processing

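Requiring scores of at least 100 in all 6 lists left 6830 mutant-only, 286 split, 569 merged, 112 narrowed and 616 widened components. The bound share was then 26.9% of widened components, 61.7% of rank falls, 21.6% of rank rises, 32.6% of split gaps and 9.76% of filled gaps. With lists of equal length there were 6745 mutant-only, 382 split and 166 narrowed components, and 13 windows were lower and 11 higher. The bound share was then 84.3% of narrowed components and 39.6% of split gaps, and the share of bases lost was 0.858 points higher under factor peaks, against 1.34 points. Joining peaks closer than 1000 bp gave 65 split and 1649 widened components, of which 40.2% were bound, and 29.8% of rank rises were bound. Of gaps of 500 bp or more 70.3% of split gaps were bound. Windows of 500 kb gave 8 lower and 81 higher, windows of 2 Mb gave 1 and 5, and the ratio relative to the autosomal ratio gave 17 and 6. Both factors were present at 67.5% of narrowed components, 18.2% of widened ones, 60.6% of rank falls and 15.5% of rank rises. A 1.5-fold threshold gave 954 narrowed and 3287 widened components. Leaving out components at a score of 3100 or more, an alternative chosen after seeing the data like the scaling of length, gave 1707 rank rises. The cause of these shifts was not tested. The balance of lower and higher windows turned under the autosomal ratio and with lists of equal length. The excess of narrowing, of rank falls and of bases lost at bound places kept its sign in each alternative run for it. Of the 113 alternative values of main results 77 moved by less than their interval or by less than 1.5 times, as did 113 of 120 values of named regions.

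No paired analysis was possible because each genotype has 1 library and no result comes from a test. Without replicates or depth, a difference between genotypes and one between libraries cannot be told apart, and a peak that is split, narrowed or absent in a list can still hold reads below the calling limit. HOX13 binding was mapped in wild type only.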
